A study of Mus musculus with 51 samples.

Results

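The libraries at CT20 were compared with those at CT8, opposite hours of the daily cycle on embryonic day 18 in the fetal mouse kidney. Groups were taken from the time in each sample's label, where CT counts the hours of the series from embryonic day 18. The comparison used 7 of the 51 libraries of the series, 4 at CT8 and 3 at CT20. Both groups were wild-type C57BL/6 fetal kidneys, collected 8 h and 20 h after the start of embryonic day 18, with no treatment named in the labels. Poly-A RNA was sequenced from the collected kidneys. The labels call the libraries of a time point biological replicates and name no dam, litter, sex or pooling. For CT20 against CT8, the error in the main fit came from all 27 libraries of CT0 to CT24, not from the 7 alone. It reflects differences among libraries of the same time point, and whether these share a dam or litter is unknown. CT20 was also 12 h older than CT8, so clock hour and age cannot be told apart within the contrast, and the change from CT0 to CT24 was used to give the change that a straight age line has over 12 h. The CT20 minus CT8 difference less that change is called the departure from the age line. It depends on CT8 as much as on CT20 and is not the distance of CT20 from the line.

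The mammalian clock is a feedback loop in which the activators CLOCK and BMAL1 (the product of Arntl) drive the Per and Cry genes, whose proteins repress those activators. NR1D1 and the ROR receptors set a further loop on Arntl, and factors such as DBP carry the rhythm to output genes. Many tissues also follow body temperature and feeding of the animal, and heat shock chaperones, cold-inducible RNA-binding proteins and splicing factors are known to respond to temperature. The fetal kidney makes nephrons from progenitors at its rim, while older nephron segments mature deeper in the tissue. In whole tissue, fewer cells of a type and less RNA per cell cannot be told apart.

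The deposited values were normalised and rounded, so read depth was unknown, and the totals of 34274841 to 35076366 in the 7 libraries do not give it. All 24 of 24 kidney markers checked were above 0 in all 7 libraries, among them Lrp2, Umod, Aqp2, Nphs1, Six2 and Ret. Alb, the liver's albumin, lay from 24 to 461 at CT8 and from 52 to 163 at CT20. Cyp11b1 of the adrenal cortex and Adipoq of fat were at 0 or 1 in all 7. The sums of the liver, adrenal, skeletal muscle, red cell, fat and gonad marker lists overlapped between the groups. In the adrenal list all 4 tested genes were higher in value at CT20 (median 0.34) and 1 passed, Nr5a1, from a mean of 12 to 23 (log2 difference 0.95, limma adjusted p = 0.0268, lost without any 1 of 4 libraries). In the skeletal muscle list 6 of 8 were higher in value (median 0.36) and 0 passed (0 also at an unadjusted p under 0.05). No 2 libraries held identical values.

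At CT20, 1227 of 14336 tested genes were higher than at CT8 (8.56%) and 740 were lower (5.16%), which made 1967 calls (13.7%) by limma at a Benjamini-Hochberg adjusted p under 0.05. Most changes were small. The median size among called genes was 0.19 on the log2 scale, 73 genes changed by more than 0.5 and 3 by more than 1. The libraries of the 2 groups did not overlap for 1051 of the 1227 genes that rose and for 655 of the 740 that fell. Over all tested genes, the groups did not overlap with CT20 higher for 1927 (13.4%) and with CT20 lower for 1268 (8.84%). Rises made up 62.4% of the calls, against 47.4% with quantile scaling and 44% with median-of-ratios scaling, so which direction was the more frequent depended on the scaling. The count fell to 692 without CT20 replicate 2 and to 1180 without CT20 replicate 3. It was 1082 when only the 7 libraries were fitted and 140 when all 51 libraries set the spread.

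CT20 was a turning point for most of these genes within the first day. Its mean was the highest of the 7 time points from CT0 to CT24 for 882 of the 1227 genes that rose and the lowest for 618 of the 740 that fell. Over all tested genes CT20 held the highest mean for 20.6% and the lowest for 15.1%. CT8 held the opposite extreme less often, with the lowest mean for 452 of the genes that rose and the highest for 266 of those that fell. These counts describe genes chosen on the same values.

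**Figure D1:**
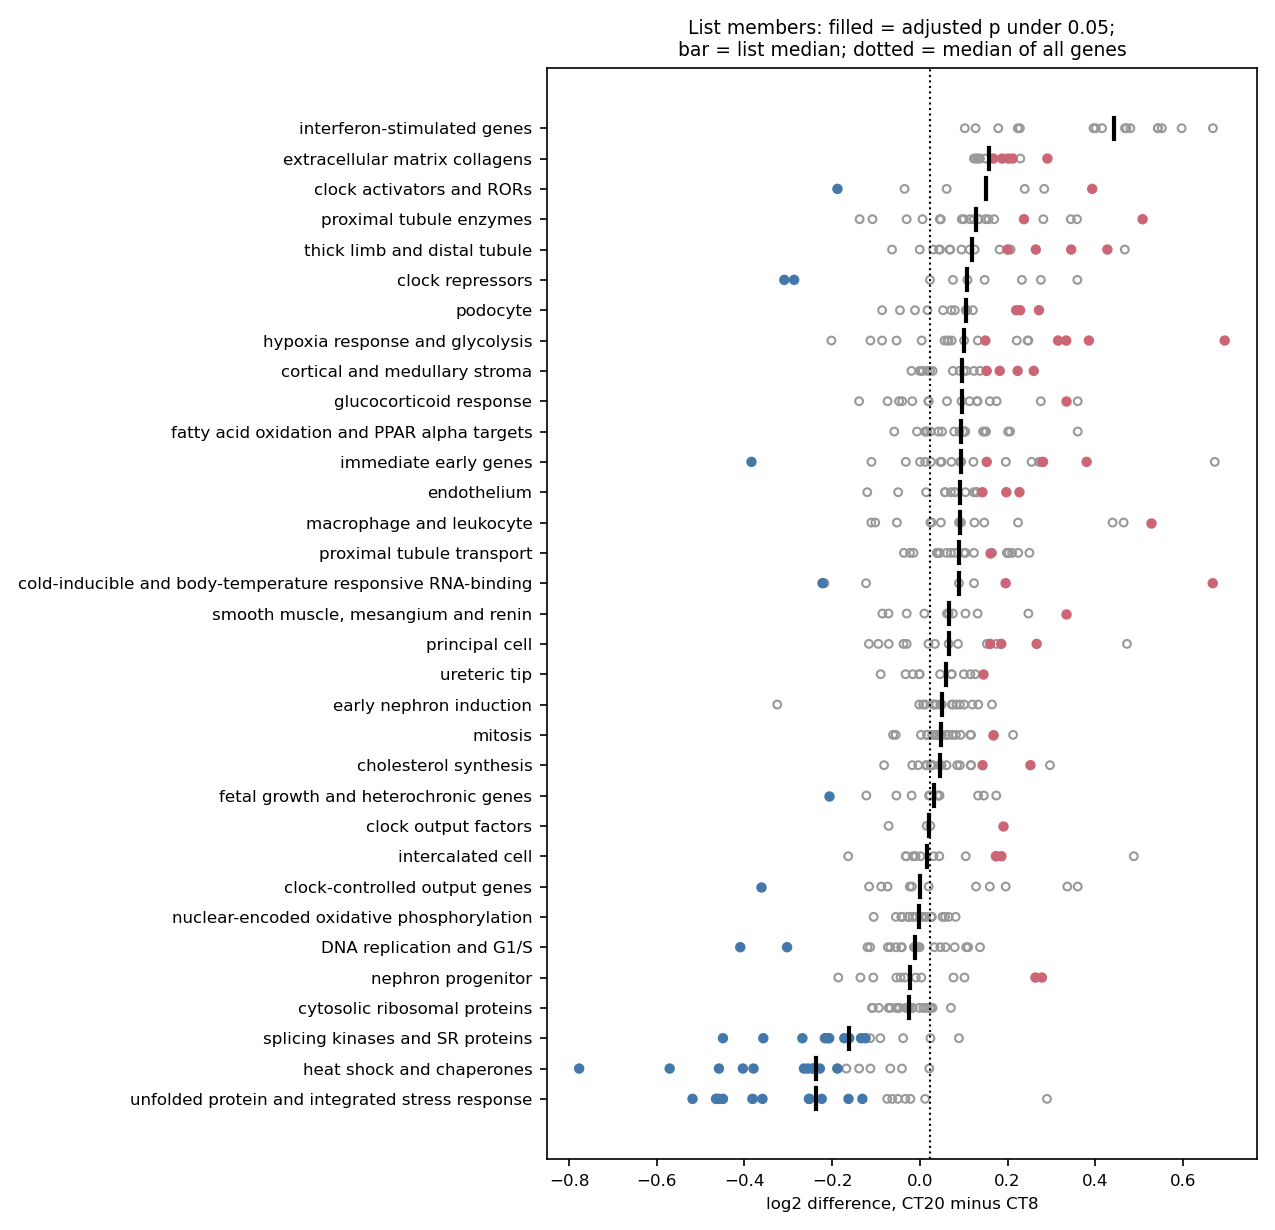
Log2 difference between CT20 and CT8 (x axis) for the tested members of each gene list (rows). Each circle is a gene, filled where its adjusted p was under 0.05, the bar is the list's median and the dotted line is the median of all tested genes (0.02). The heat shock, unfolded protein and splicing lists lie to the left, with filled circles on that side only.

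Genes of protein folding fell. Of the 18 tested genes in the list heat shock and chaperones, 11 fell and 0 rose (limma, 14 lower and 0 higher at an unadjusted p under 0.05), with a median log2 difference of -0.24 against 0.02 over all tested genes. Over all tested genes 5.16% fell and 8.56% rose. The count of falls in the list lay between 9 and 12 in every alternative fit listed for this comparison. CT20 had the lowest of the 7 means for 12 of the 18. The list was chosen with earlier results of these data known.

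Hspa8, the constitutive cytosolic HSP70 (chr9:40800984-40810087, plus strand, mm10), measured 76687, 74180, 74385 and 72582 in the CT8 libraries and 52234, 46189 and 52203 in the CT20 libraries. The groups were far apart, and all 3 CT20 libraries were low. The mean fell by 32.6%, a log2 difference of -0.57 ± 0.05 (SE; limma adjusted p = 2.28e-08). Hsph1, the HSP110 exchange factor that recharges HSP70 (chr5:149614287-149636376, minus strand), measured 3080, 3108, 2817 and 3183 at CT8 and 1909, 1619 and 1812 at CT20. It fell by 41.6%, a log2 difference of -0.78 ± 0.09 (adjusted p = 1.89e-05). Neither gene had overlapping groups, and both kept their call in all 20 alternative fits.

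The co-chaperones moved with them. Dnaja1 and Dnajb1, J-domain proteins that load clients onto HSP70, fell by 0.38 and 0.24 on the log2 scale. Chordc1, a partner of HSP90, fell from 2383 ± 152 (SD, n = 4) to 1802 ± 130 (SD, n = 3). Stip1, the adaptor that passes clients from HSP70 to HSP90, and Ahsa1, the activator of the HSP90 ATPase, had log2 differences of -0.26 and -0.24. Hsp90aa1, the inducible HSP90, had -0.26, while Hsp90ab1, the constitutive form, had -0.04 ± 0.03 (adjusted p = 0.456). The mitochondrial chaperonin was split across the threshold. Hspe1 fell (-0.19, adjusted p = 0.0134), and its partner Hspd1 did not pass (-0.14 ± 0.05, adjusted p = 0.0506). Hsf1, the transcription factor of the heat shock response, was at the threshold with -0.23 ± 0.08 (adjusted p = 0.0494). Hspa1a and Hspa1b, the stress-inducible HSP70 genes, are near-identical copies whose reads can be split between them, and their values of -0.19 and -0.17 did not pass (adjusted p = 0.142 and 0.118).

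**Figure D2:**
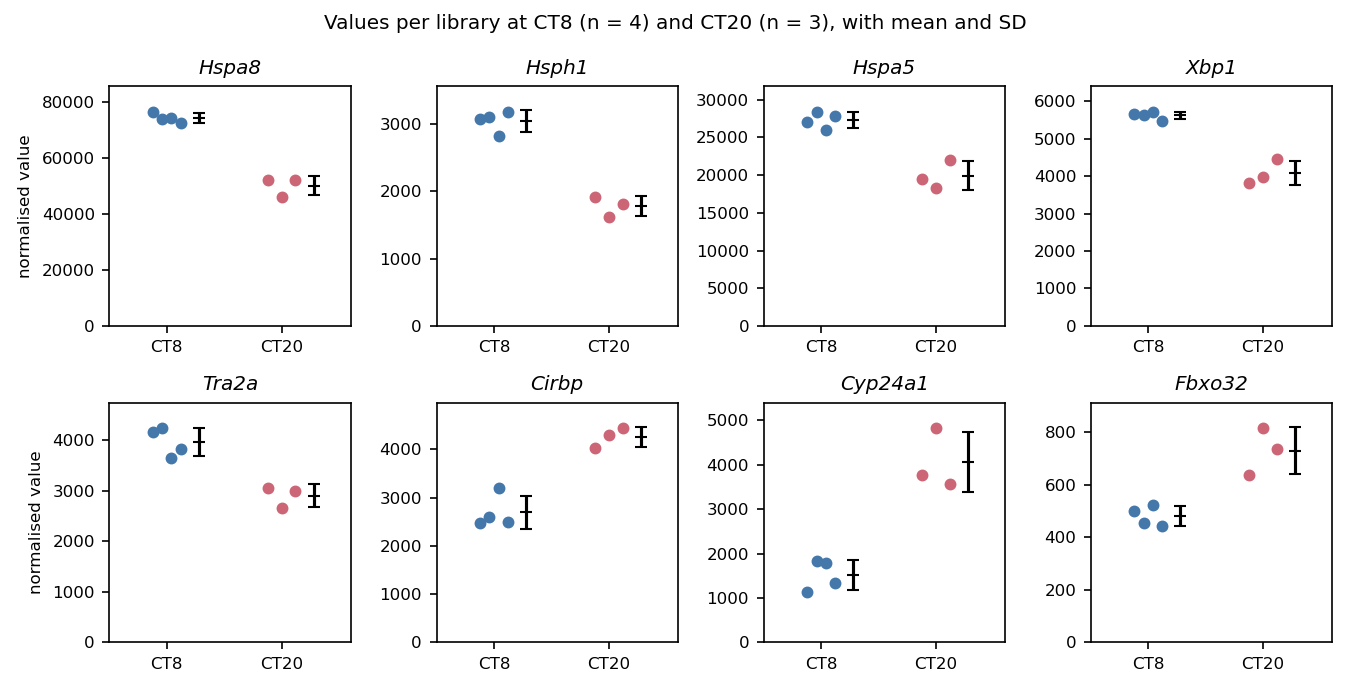
Normalised values (y axis, from 0) of 8 genes in the 4 libraries at CT8 (blue) and the 3 at CT20 (red), with mean and SD beside them. Hspa8, Hsph1, Hspa5, Xbp1 and Tra2a are lower in all 3 CT20 libraries than in any CT8 library, and Cirbp, Cyp24a1 and Fbxo32 are higher.

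The folding machinery of the endoplasmic reticulum fell in the same libraries. Of the 20 tested genes in the list unfolded protein and integrated stress response, 12 fell and 0 rose (limma, also 12 and 0 at an unadjusted p under 0.05), with a median of -0.24. Over all tested genes 5.16% fell. The count of falls in the list was 6 when all 51 libraries set the spread and 10 to 12 in the other alternatives. Hspa5 is in both lists. Together they held 37 tested genes, of which 22 fell.

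Hspa5, which encodes BiP, the HSP70 of the endoplasmic reticulum (chr2:34771970-34777547, plus strand), measured 27023, 28421, 26055 and 27811 at CT8 and 19464, 18344 and 22007 at CT20. Its highest CT20 library stayed below its lowest CT8 library. The mean fell from 27328 ± 1023 (SD, n = 4) to 19938 ± 1877 (SD, n = 3) (log2 difference -0.46 ± 0.06, adjusted p = 3.17e-05). Xbp1, a transcription factor that switches on the unfolded protein response (chr11:5520659-5525893, plus strand), measured 5661, 5633, 5723 and 5486 at CT8 and 3820, 3987 and 4453 at CT20. It fell by 27.4% (log2 difference -0.46 ± 0.05, adjusted p = 1.2e-06).

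Manf, Creld2 and Sdf2l1, secretory pathway genes known for induction under endoplasmic reticulum stress, fell by 27.3%, 26.7% and 30.1%. Manf was tight at CT8, with 3385, 3304, 3335 and 3386, against 2462, 2174 and 2677 at CT20. Creld2 measured 2125, 2109, 1961 and 2036 at CT8 and 1558, 1384 and 1585 at CT20. All 3 genes were lower in each CT20 library than in any CT8 library. The chaperones and disulphide isomerases Calr, Hsp90b1, Pdia4 and Pdia6 had log2 differences of -0.25, -0.25, -0.22 and -0.13. Ddit3 (CHOP, a transcription factor of prolonged stress), Dnajb9 (a BiP co-chaperone) and Herpud1 (a factor of degradation from the endoplasmic reticulum) had -0.38, -0.36 and -0.16. All 7 passed the test. The 8 other members did not pass, with values from -0.38 (Chac1, mean 23 at CT8) to 0.29 (Trib3). Among them Atf4, the central factor of the integrated stress response, had -0.02 ± 0.04 (adjusted p = 0.745), and Asns, Psat1 and Phgdh, enzymes of amino acid synthesis that it is known to drive, had -0.06, -0.07 and -0.03.

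The promoters of these genes were read from RefSeq on GRCm38.p6 (mm10) as the 250 bases before the transcription start. The endoplasmic reticulum stress response element was spelled CCAAT, then 9 bases of any kind, then CCACG, and searched on both strands. It was present in 5 of the 11 fallen genes of that list that had an entry (Manf had none). Over all entries it was in 35 of 27025 gene symbols (0.113% of all 32851 windows). List members that did not fall were not counted, so these shares do not tie the element to the fall. The 5 windows are shown because they carry the element that names the pathway. Each is written 5′ to 3′ along the gene's strand, with the match in capitals, which appears as its reverse complement where it lies on the other strand.
Hspa5, chr2:34771840-34772089, plus strand: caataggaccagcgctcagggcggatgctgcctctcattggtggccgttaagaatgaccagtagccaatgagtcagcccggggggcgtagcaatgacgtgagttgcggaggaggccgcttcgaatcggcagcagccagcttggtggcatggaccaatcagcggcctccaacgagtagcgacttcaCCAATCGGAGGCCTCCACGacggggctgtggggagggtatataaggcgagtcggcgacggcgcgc
Hsp90b1, chr10:86705445-86705694, minus strand: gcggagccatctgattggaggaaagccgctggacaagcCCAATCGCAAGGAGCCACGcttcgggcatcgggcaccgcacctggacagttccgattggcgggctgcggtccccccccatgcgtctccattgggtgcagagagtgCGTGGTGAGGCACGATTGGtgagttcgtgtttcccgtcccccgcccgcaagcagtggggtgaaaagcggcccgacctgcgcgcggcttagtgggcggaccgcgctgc
Pdia6, chr12:17266339-17266588, plus strand: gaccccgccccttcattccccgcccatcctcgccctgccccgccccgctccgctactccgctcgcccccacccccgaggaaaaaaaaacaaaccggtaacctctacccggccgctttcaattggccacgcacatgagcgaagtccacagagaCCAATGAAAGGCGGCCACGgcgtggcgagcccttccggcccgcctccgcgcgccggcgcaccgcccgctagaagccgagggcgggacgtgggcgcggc
Calr, chr8:84846932-84847181, minus strand: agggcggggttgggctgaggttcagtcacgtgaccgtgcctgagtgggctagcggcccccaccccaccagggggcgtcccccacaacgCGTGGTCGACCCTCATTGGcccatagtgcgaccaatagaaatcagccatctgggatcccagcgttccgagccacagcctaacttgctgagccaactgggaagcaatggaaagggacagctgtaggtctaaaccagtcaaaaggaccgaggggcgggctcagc
Creld2, chr15:88819396-88819645, plus strand: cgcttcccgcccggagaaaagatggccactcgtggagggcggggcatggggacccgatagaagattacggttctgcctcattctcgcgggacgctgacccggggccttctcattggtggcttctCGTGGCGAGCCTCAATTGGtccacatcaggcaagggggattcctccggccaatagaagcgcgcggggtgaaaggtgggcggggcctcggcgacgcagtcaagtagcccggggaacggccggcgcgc
The element began 65 bases before the start in Hspa5, 98 in Pdia6 and 162 in Calr, and Hsp90b1 held a pair of matches, the farther at 212 bases. A heat shock element was spelled TTC, GAA and TTC with 2 bases of any kind between each and searched on both strands. It was found in 1 of the 8 fallen heat shock genes with an entry (Hspe1). Over all entries it was in 139 of 27025 gene symbols (0.466% of all windows). Hspa8, Hsp90aa1 and Hsf1 had no entry. A match is a run of letters in this window and says nothing of binding.
Hspe1, chr1:55087898-55088147, plus strand: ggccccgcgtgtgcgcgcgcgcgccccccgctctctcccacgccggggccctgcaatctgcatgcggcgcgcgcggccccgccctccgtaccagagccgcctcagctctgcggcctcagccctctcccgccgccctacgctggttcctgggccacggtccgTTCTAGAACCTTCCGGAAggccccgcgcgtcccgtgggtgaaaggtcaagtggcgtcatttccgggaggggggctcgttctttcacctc
The 2 matches in Hspe1 overlap, and the capitals cover both.

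Splicing regulators formed the third group that fell. Of the 17 tested genes in the list splicing kinases and SR proteins, 10 fell and 0 rose (limma, 13 lower and 0 higher at an unadjusted p under 0.05), with a median of -0.16. Over all tested genes 5.16% fell. The count of falls in the list was 3 when all 51 libraries set the spread and 7 without CT20 replicate 2. Tra2a, which binds exons to promote their inclusion, measured 4151, 4235, 3646 and 3823 at CT8 and 3057, 2651 and 3003 at CT20, with no overlap. It fell by 26.7% (log2 difference -0.45 ± 0.08, adjusted p = 0.000996). Srsf10, an SR protein known to change its activity after heat shock, measured 6422, 6067, 5870 and 5755 at CT8 and 5205, 4371 and 4571 at CT20. It fell by 21.8% (adjusted p = 0.000581), and again the groups did not overlap.

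Smaller falls were spread over the family. Srsf7, Tra2b, Srsf11, Srsf1 and Srsf6 had log2 differences of -0.27, -0.22, -0.21, -0.21 and -0.16. The kinases Srpk1, Clk2 and Clk3, which phosphorylate SR proteins, had -0.17, -0.13 and -0.12. Clk1 was -0.22 ± 0.08 and did not pass (adjusted p = 0.0641), nor did Srsf3 (-0.11), Srsf2 (-0.09), Srsf4 (0.02) or Srsf5 (0.09).

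RNA-binding proteins known to follow temperature did not share a direction. Of the 7 tested genes in that list, 2 rose and 1 fell, against 8.56% and 5.16% of all tested genes. Cirbp, a cold-inducible RNA-binding protein (chr10:80165985-80172786, plus strand), measured 2471, 2598, 3203 and 2495 at CT8 and 4035, 4299 and 4436 at CT20. CT8 replicate 3 was the highest of its group and still below every CT20 library. The mean rose 1.58-fold (log2 difference 0.67 ± 0.16, adjusted p = 0.00974). Sfpq, a paraspeckle protein, fell by 0.22 ± 0.04 (adjusted p = 0.000184). Rbm3, the other well-known cold-inducible member, had 0.12 ± 0.11 (adjusted p = 0.494), with means of 12300 ± 485 (SD, n = 4) and 13408 ± 804 (SD, n = 3).

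**Figure D3:**
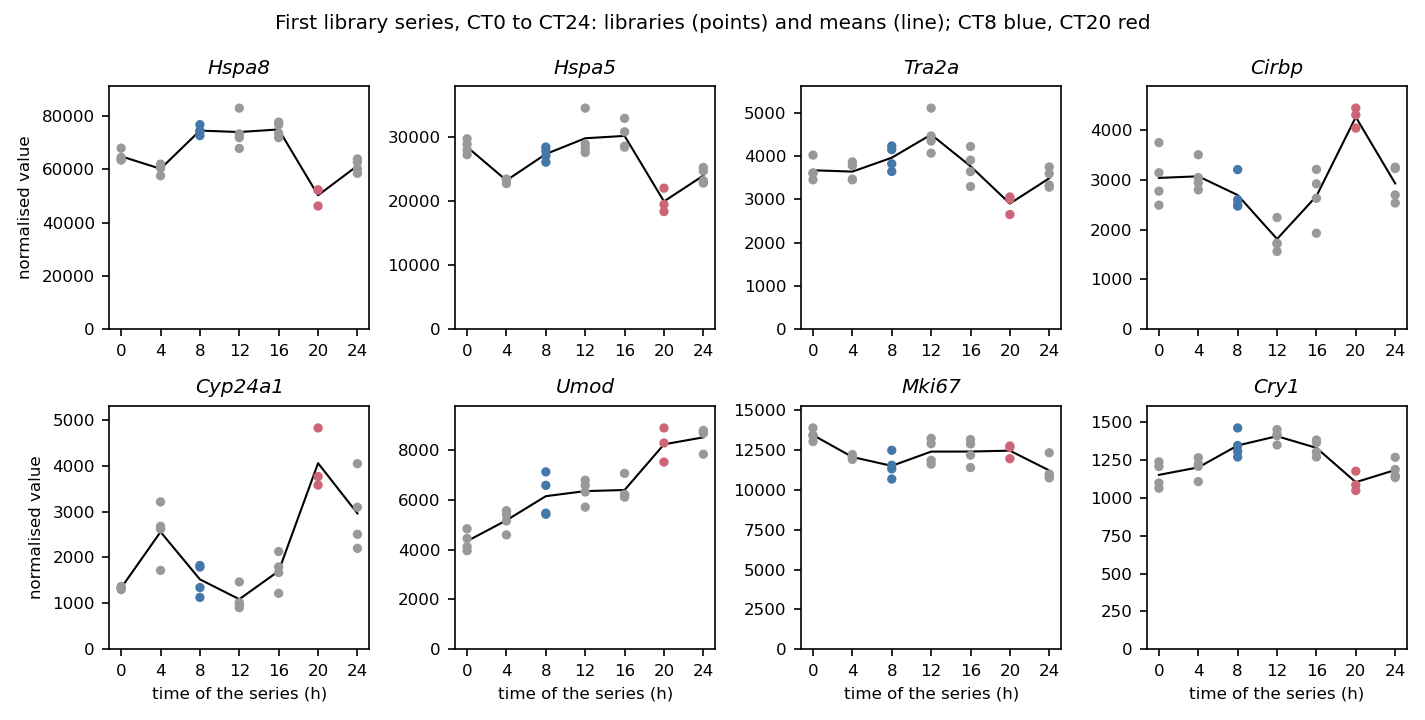
Normalised values (y axis, from 0) of 8 genes in each library from CT0 to CT24 (x axis, hours), with CT8 in blue, CT20 in red and the means joined by a line. Hspa8, Hspa5 and Tra2a have their lowest mean at CT20, Cirbp and Cyp24a1 their highest, and Umod climbs over the day.

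Over the first day Hspa8 and Hspa5 were lowest at CT20, with a smaller dip at CT4 before the CT8 level. The mean of Hspa8 was 60147 at CT4, 74458 at CT8, 74897 at CT16, 50209 at CT20 and 61288 at CT24. Hspa5 stood at 23213, 27328, 30159, 19938 and 23966 at the same times. Cirbp ran the other way, with its lowest mean at CT12 (1811), 4257 at CT20 and 2926 at CT24. All 3 had moved back from their CT20 level by CT24, and these steps between neighbouring times were not tested.

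The clock genes showed small and mixed differences. Of the 9 tested repressors 2 fell and 0 rose (limma, 2 lower and 4 higher at an unadjusted p under 0.05). Over all tested genes 5.16% fell and 8.56% rose. Per2 (chr1:91415982-91459324, minus strand) measured 750, 778, 825 and 737 at CT8 and 660, 615 and 595 at CT20. It fell by 19.3% (log2 difference -0.31 ± 0.07, adjusted p = 0.0065). Cry1 (chr10:85131700-85185064, minus strand), the cryptochrome of the repressor complex, measured 1308, 1271, 1347 and 1463 at CT8 and 1177, 1049 and 1086 at CT20. It fell by 18.1% (log2 difference -0.29 ± 0.06, adjusted p = 0.00143). Neither had overlapping groups. Neither passed when all 51 libraries set the spread, which called 0 of the 9.

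Per1, which answers quickly to light and hormones, had 1704, 1915, 1968 and 2025 at CT8 and 2167, 2531 and 2217 at CT20. It was higher in each CT20 library, but 0.28 ± 0.11 did not pass (adjusted p = 0.0922). Per3 was 0.02 ± 0.07, with a sign that depended on the scaling and on single libraries, and Cry2 was 0.08 ± 0.06. Nr1d1 and Nr1d2, the nuclear receptors that repress Arntl, were 0.15 ± 0.06 and 0.11 ± 0.06 (adjusted p = 0.0999 and 0.264). Bhlhe40 and Bhlhe41, repressors that bind E-boxes, were 0.23 ± 0.10 and 0.36 ± 0.18 and did not pass.

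Among the 6 activators and ROR receptors, 1 rose and 1 fell, against 8.56% and 5.16% of all tested genes. Clock measured 1994, 1966, 2043 and 1806 at CT8 and 1802, 1673 and 1664 at CT20, a log2 difference of -0.19 ± 0.05 (adjusted p = 0.0117). The lowest CT8 library stood just above the highest at CT20. Rora, an activator of Arntl, measured 242, 197, 220 and 173 at CT8 and 264, 298 and 254 at CT20, a difference of 0.39 ± 0.10 (adjusted p = 0.0124). Clock lost its call without CT20 replicate 2 or 3, and Rora without CT20 replicate 2. Arntl itself was 0.06 ± 0.07 (adjusted p = 0.586), Npas2, a stand-in for CLOCK, was 0.28 ± 0.10 (adjusted p = 0.0592), and Rorb was 0.24 ± 0.21 (adjusted p = 0.476).

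Of the 4 output factors, Dbp passed at 0.19 ± 0.06 (adjusted p = 0.0417), with 378, 345, 340 and 355 at CT8 and 376, 420 and 417 at CT20. The groups overlapped, and the call was lost without any 1 of CT8 replicates 2, 3 and 4 and CT20 replicates 2 and 3. Tef, Hlf and Nfil3 were 0.02, -0.07 and 0.02. Of the 12 tested genes under clock control 1 passed: Coq10b, which serves coenzyme Q in mitochondria, fell by 22.4% (log2 difference -0.36 ± 0.07, adjusted p = 0.0015). Of all tested genes 13.7% passed in either direction. The core E-box CACGTG was in the promoter window of 1 of the 4 clock genes past the threshold that had an entry (Per2 had none). Over all entries it was in 1854 of 27025 gene symbols (6.02% of all windows). The clock gene was Cry1, whose window is shown with the E-box in capitals.
Cry1, chr10:85185055-85185304, minus strand: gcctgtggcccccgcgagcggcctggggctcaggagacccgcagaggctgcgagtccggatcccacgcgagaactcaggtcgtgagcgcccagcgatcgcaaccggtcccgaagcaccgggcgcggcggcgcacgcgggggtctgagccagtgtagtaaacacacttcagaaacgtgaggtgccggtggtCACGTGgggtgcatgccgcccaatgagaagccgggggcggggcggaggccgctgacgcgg
The E-box of Cry1 began 60 bases before the start.

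The largest rise was that of Cyp24a1, the enzyme that inactivates vitamin D (chr2:170482708-170497145, minus strand). It measured 1127, 1823, 1789 and 1342 at CT8 and 3763, 4823 and 3577 at CT20. The lowest CT20 library was above the highest CT8 library, and the mean rose 2.67-fold (log2 difference 1.43 ± 0.24, adjusted p = 0.000818). Cyp27b1, the enzyme that activates vitamin D, was 0.05 ± 0.07 (adjusted p = 0.71). Fbxo32, a ubiquitin ligase known from muscle wasting, measured 499, 452, 524 and 443 at CT8 and 636, 814 and 736 at CT20 (log2 difference 0.60 ± 0.08, adjusted p = 1.36e-05). Zc3h6, a zinc finger gene, measured 353, 393, 485 and 366 against 667, 609 and 573 (0.63 ± 0.09, adjusted p = 3.95e-05). Both were apart between the groups in every library.

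Other large rises came from lower values. Lrrc4c, a synaptic adhesion gene, measured 56, 75, 77 and 55 at CT8 and was higher in all 3 CT20 libraries, with 120 and 141 in replicates 1 and 2, a difference of 0.93 ± 0.13 (adjusted p = 2.19e-05). Inhbb, the inhibin beta B subunit, and Abcg5, a sterol transporter, rose by 0.61 each, and Tmem220, Spns3 and Cage1 by 0.71, 0.66 and 0.60. Oasl1, an interferon-stimulated gene, rose by 0.80 ± 0.24 (adjusted p = 0.0289), a call lost without any 1 of 5 of the 7 libraries. The list of 16 interferon-stimulated genes, which does not hold Oasl1, had 0 calls (limma, 6 higher and 0 lower at an unadjusted p under 0.05), although all 16 were higher in value, with a median of 0.44. Isg15 measured 526, 500, 465 and 476 at CT8 and 693, 704 and 644 at CT20 and had 0.47 ± 0.30 (adjusted p = 0.326). Its SE came from all 7 time points of the first day, so a gene steady within CT8 and CT20 but spread at other times carries a wide error here.

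Ankrd37, a target of the hypoxia response, rose by 0.70 ± 0.19 (adjusted p = 0.0187), a call lost without any 1 of CT8 replicates 3 and 4 and CT20 replicates 2 and 3. It led the hypoxia response and glycolysis list, in which 5 of 19 rose and 0 fell, against 8.56% and 5.16% of all tested genes. The others were Ndrg1, Ddit4, Egln3 and Hk1, with 0.39, 0.33, 0.32 and 0.15. Pgk1, Ldha and Slc2a1, also targets of that response, were 0.00, 0.13 and 0.25 and did not pass. The count of rises was 1 without CT20 replicate 2 and 2 without CT8 replicate 3, CT8 replicate 4 or CT20 replicate 3.

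Banp had the largest fall. This gene encodes a nuclear matrix protein that binds CpG-rich promoters (chr8:121949750-122029258, plus strand). It measured 1185, 1221, 1016 and 1106 at CT8 and 683, 544 and 682 at CT20, with a wide gap between the groups. The mean fell by 43.8% (log2 difference -0.83 ± 0.09, adjusted p = 7e-06). Hmox1, haem oxygenase, measured 3064, 3027, 4761 and 3548 at CT8 and 1902, 1929 and 2474 at CT20. It fell by 41.6% (-0.76 ± 0.23, adjusted p = 0.0306), and the call was lost without any 1 of 4 libraries. Nanos1 and Adam8 fell by 0.51 and 0.45 on the log2 scale, from means of 98 and 101 at CT8, and the call of Nanos1 was lost without CT20 replicate 1 or 2.

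Some markers of mature nephron segments rose. Over all tested genes 8.56% rose, and the counts of the proximal tubule lists, given below, were near or under that share. In the list thick limb and distal tubule, 4 of 18 rose and 0 fell (median 0.12). Umod, the major secreted protein of the thick limb, measured 5418, 7122, 6581 and 5464 at CT8 and 8283, 8888 and 7517 at CT20, with no overlap. It rose 1.34-fold (log2 difference 0.43 ± 0.09, adjusted p = 0.00473). Slc12a1, the salt cotransporter of the thick limb, rose 1.20-fold (adjusted p = 0.00104). Trpm6, a magnesium channel, and Kl, which encodes klotho, rose by 0.35 and 0.20. The call of Trpm6 was lost without CT8 replicate 1 or CT20 replicate 2, and that of Kl without CT8 replicate 3, CT8 replicate 4 or CT20 replicate 2. The count was 1 when only the 7 libraries were fitted and 2 without CT20 replicate 2.

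In the collecting duct, Aqp2, Aqp3 and Scnn1b of the principal cell rose by 0.27, 0.19 and 0.16 (3 of 15), and Car12, Oxgr1 and Atp6v1b1 of the intercalated cell by 0.17, 0.17 and 0.19 (3 of 14). Of 22 proximal tubule transporters 1 rose, Slc7a8 (0.16), and of 20 proximal tubule enzymes 2 rose, Cyp2e1 (0.51 ± 0.09) and Fbp1 (0.24 ± 0.05). In podocytes Col4a3, Col4a4 and Magi2 rose by 0.23, 0.22 and 0.27 (3 of 15), and none of the 3 passed without CT20 replicate 2. Aqp3 and Scnn1b also lost their call without CT20 replicate 2, Car12 without that library or CT8 replicate 4, and Aqp2, Oxgr1, Slc7a8 and Atp6v1b1 without any 1 of 3 to 6 libraries, CT20 replicates 2 and 3 among them. Cyp2e1 and Fbp1 kept theirs whichever library was left out. Col4a3 also lost its call without CT20 replicate 3. No gene of these 6 lists fell past the threshold.

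For Umod, Slc12a1, Aqp2 and Fbp1 the departure from the age line did not pass the test. Umod climbed from a mean of 4339 at CT0 to 8510 at CT24, with 6146 at CT8 and 8229 at CT20, and its departure was -0.06 ± 0.10 (adjusted p = 0.795). The departures of Slc12a1, Aqp2 and Fbp1 were 0.08, -0.11 and -0.08. The limma adjusted p of the 4 genes lay from 0.422 to 0.795.

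A few stromal and progenitor genes rose. Of 18 stromal genes 4 rose and 0 fell, against 8.56% and 5.16% of all tested genes. A positive departure from the age line passed for 5 of the 18, against 4.72% of all tested genes. Pdgfra, a receptor of stromal cells, measured 7499, 6986, 7153 and 7578 at CT8 and 8117, 9208 and 8935 at CT20. It rose by 0.26 ± 0.04 (adjusted p = 0.000155) with a departure of 0.34 (adjusted p = 3.81e-05). Meis2, Pdgfrb and Meis1, also of the stroma, rose by 0.18, 0.22 and 0.15, and Meis1 did not pass without CT20 replicate 3. Among 12 nephron progenitor genes 2 rose and 0 fell, and 7 were lower in value, with a median of -0.02 against 0.02 over all tested genes. Eya1, a transcriptional partner of SIX2, measured 1596, 1459, 1545 and 1830 at CT8 and 2040, 1873 and 1920 at CT20, and Itga8, the integrin that progenitors display, measured 6099, 5924, 6005 and 6006 against 7010, 7532 and 7108. Both had no overlap, with differences of 0.28 ± 0.05 and 0.26 ± 0.04. Six2 and Cited1 did not pass (adjusted p = 0.231 and 0.746). The difference between the stromal and the tubular lists was not tested.

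The departure from the age line was positive past the threshold for 676 of 14336 genes (4.72%) and negative for 357 (2.49%), 1033 in all (7.21%). The value tested was the CT20 minus CT8 difference less the share of the CT24 minus CT0 change that falls to 12 of 24 h. Of the 1227 genes that rose, 447 also had a positive departure and 0 a negative one, and of the 740 that fell, 295 had a negative departure and 0 a positive one. The count was 474 without CT20 replicate 2, 462 without CT20 replicate 3, 656 without CT8 replicate 3 and 52 when all 51 libraries set the spread. CT8 and CT20 serve both contrasts, so the overlap is not independent.

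Chaperone genes also had negative departures. Of the 18 heat shock genes 9 had a negative departure and 0 a positive one, of the 20 unfolded protein genes 8 and 0, and of the 17 splicing genes 7 and 0. Over all tested genes 2.49% had a negative departure and 4.72% a positive one. Hspa8 had a departure of -0.53 ± 0.06 (adjusted p = 1.26e-06), and Xbp1 had -0.43 ± 0.06 (adjusted p = 1.91e-05). Banp had -0.85 ± 0.10 and Per2 had -0.49 ± 0.08 (adjusted p = 0.000549). The splicing count was 3 without CT20 replicate 2 or 3 and 0 when all 51 libraries set the spread.

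Genes that did not differ between CT8 and CT20 past the threshold could still have a departure past it. Rgs4, a regulator of G protein signalling, and Hmx2, a homeobox gene, had departures of -0.54 and -0.53, with means of 276 and 90 at CT24. Leaving out any 1 of 8 libraries ended the call of Rgs4, and CT8 replicates 1 and 3 and CT20 replicates 2 and 3 each did so for Hmx2.

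**Figure D4:**
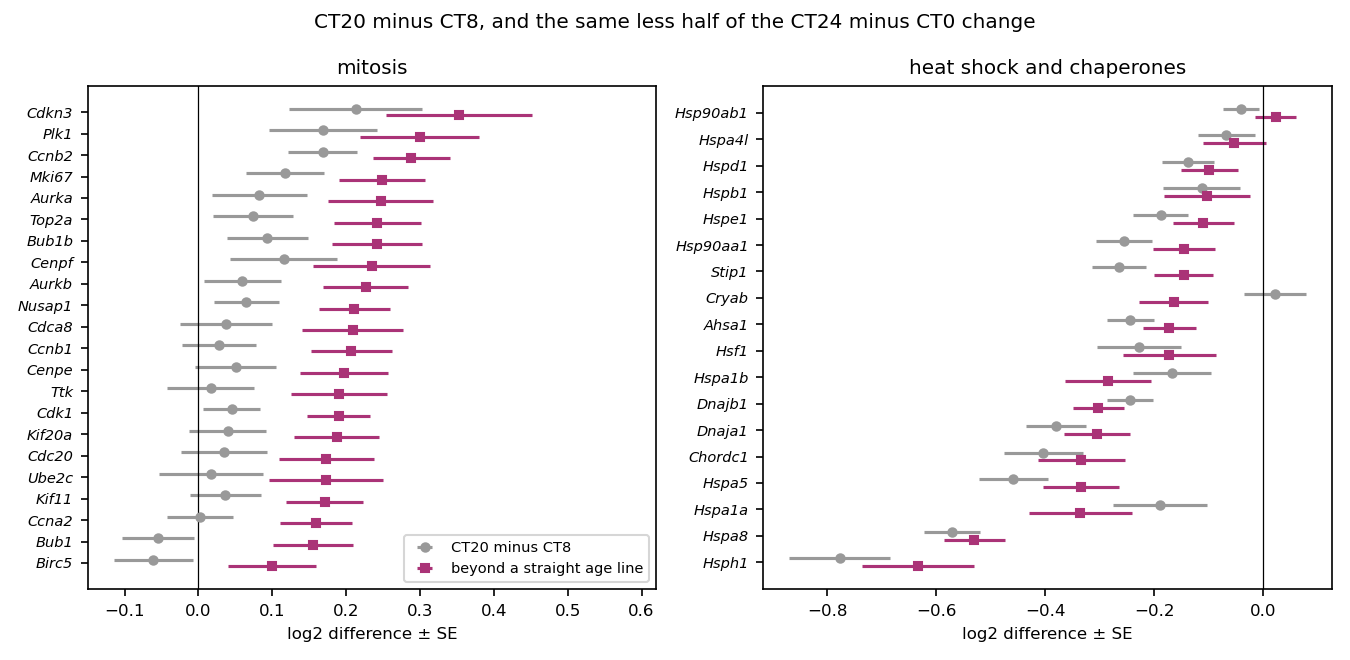
Log2 differences with SE (x axis) for the genes of mitosis (left) and of heat shock and chaperones (right). Grey circles are CT20 minus CT8 and purple squares are the departure from the age line, that is the same difference less the change the line gives for 12 h. Most mitosis squares lie above 0 and to the right of the circles, and most heat shock squares lie below 0.

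Cell division genes changed little in the plain contrast, and many had a positive departure from the age line. Over all tested genes 8.56% rose and 4.72% had a positive departure. In the mitosis list 1 of 22 rose, Ccnb2 (0.17 ± 0.05, adjusted p = 0.0175, lost without CT8 replicate 1 or CT20 replicate 3), and 15 of 22 had a positive departure (0 a negative one), with a median departure of 0.21 against 0.01 over all tested genes. Mki67, a protein of cycling cells, measured 10688, 11327, 11560 and 12497 at CT8 and 12770, 11970 and 12683 at CT20, and the groups overlapped. At CT0 it measured 13444, 13902, 13046 and 13429 and at CT24 12341, 10810, 11002 and 10763, so it was lower a day later at the same hour. Its departure was 0.25 ± 0.06 (adjusted p = 0.0085). Plk1 and Ccnb2, which drive entry into mitosis, had 0.30 and 0.29, and Cdk1 had 0.19. The mitosis count was 4 without CT20 replicate 3, 7 without CT8 replicate 3 and 8 without CT8 replicate 1, CT8 replicate 2 or CT20 replicate 2. It was 0 when all 51 libraries set the spread, and 10 with median-of-ratios scaling.

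Genes of DNA replication followed in part. Of 21 tested genes 6 had a positive departure and 0 a negative one, against 4.72% and 2.49% of all tested genes. Among the 6 were Chaf1b, Cdt1 and Mcm7 with 0.29, 0.26 and 0.23. In the plain contrast the cyclins that start the S phase fell. Ccne2 measured 1129, 1016, 989 and 1059 at CT8 and 804, 734 and 829 at CT20, with no overlap (log2 difference -0.41 ± 0.08, adjusted p = 0.00161). Ccne1 had -0.30 ± 0.08 (adjusted p = 0.0141), a call lost without CT8 replicate 4 or CT20 replicate 2.

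The same clock hours a day later, CT44 against CT32, lie in the second series of libraries, where the spread within time points was wider (a median SD of 0.136 on the log2 scale, against 0.0748 in the first). The 2 comparisons share no library. In a fit of those 8 libraries alone, 3084 of 14531 genes rose (21.2%) and 3556 fell (24.5%). Together these were 45.7%. A fit of all 51 libraries called 8674 (60.1%, 28.4% higher and 31.7% lower), with a spread taken in part from the tighter first series. The difference between the days was tested in that 51-library fit, so its p-values rest on the same spread. Of the 1227 genes that rose on embryonic day 18, 523 rose on day 19 (42.6%) and 108 fell (8.8%). Of the 740 that fell, 358 fell again (48.4%) and 53 rose (7.16%). The 523 were 17.1% of the rises and the 358 were 10.1% of the falls on day 19. CT32 stood apart from CT44 on the first component of the second series, from 24.1 to 44.2 against -31.6 to -16.0, and CT28 lay beside CT32 (32.9 to 36.5). The part of those libraries in these counts was not tested.

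Most of the chaperone and splicing genes that fell on day 18 fell again on day 19. Of the 11 heat shock genes that fell on day 18, 9 fell on day 19, and so did 9 of the 12 unfolded protein genes and 8 of the 10 splicing genes. Among all 740 genes that fell on day 18, 48.4% fell again. Over the whole lists, 4 of 18 heat shock, 4 of 20 unfolded protein and 2 of 17 splicing genes rose on day 19. Of all genes in that fit 21.2% rose and 24.5% fell. Herpud1 fell on day 18 and rose by 0.50 on day 19 (adjusted p = 0.000129). Hspa8 had -0.47 ± 0.07 on day 19 (adjusted p = 2.53e-05) and Hspa5 had -0.58 ± 0.08 (adjusted p = 4.41e-05). Hsph1, Chordc1 and Tra2a had -1.15, -1.34 and -1.34, larger in value than on day 18. The difference between the days was -0.94 for Chordc1 (adjusted p = 8.59e-07) and -0.89 for Tra2a (1.12e-05), and for Hsph1 it did not pass (-0.37, adjusted p = 0.0808). Hspa1a, Hspa1b, Hspb1 and Cryab, which had not passed on day 18, rose on day 19 by 0.96, 0.89, 0.56 and 0.24. Banp had -0.90 ± 0.14, close to its -0.83 on day 18 (difference -0.06, which did not pass).

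Among the genes that rose, Cyp24a1 had 1.40 ± 0.27 on day 19 (adjusted p = 0.00401), against 1.43 on day 18. Fbxo32 had 0.94 and Zc3h6 0.60, both past the threshold. Cirbp rose by 2.11 ± 0.08 (adjusted p = 7.62e-12), from a mean of 1208 at CT32 to 5208 at CT44, and the difference between the days was 1.44 (adjusted p = 2.3e-07).

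**Figure D5:**
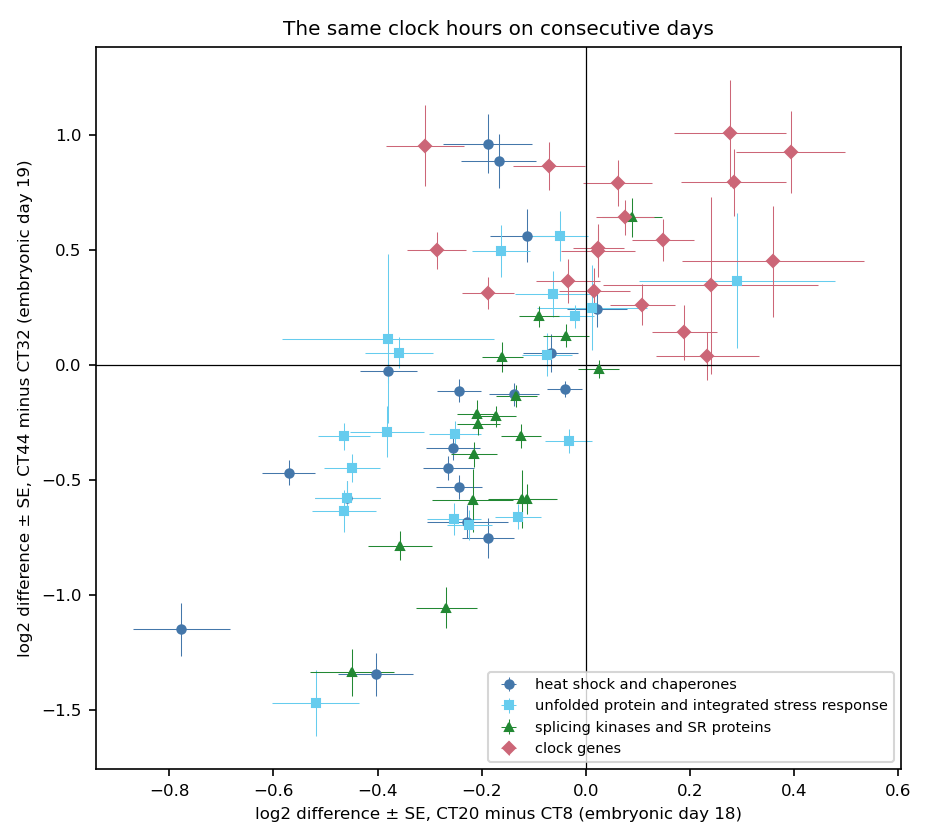
Log2 difference with SE between CT20 and CT8 on embryonic day 18 (x axis) and between CT44 and CT32 on embryonic day 19 (y axis, SE from the fit of all 51 libraries). Points are genes of the heat shock, unfolded protein and splicing lists and clock genes. Most chaperone and splicing points lie at the lower left, and the clock genes lie above 0 on day 19.

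Clock genes did not repeat their day 18 pattern. Of the 9 repressors 7 rose on day 19, of the 6 activators and ROR receptors 5, and of the 4 output factors 3, and 0 of the 19 fell. Over all genes in the same fit of 8 libraries, 21.2% rose and 24.5% fell. Per2 and Cry1, which fell on day 18, rose by 0.96 ± 0.15 and 0.50 ± 0.09 on day 19 (adjusted p = 9.75e-05 and 0.000281). The differences between the days were 1.27 for Per2 and 0.79 for Cry1 (adjusted p = 0.000162 and 1.63e-06). Such a difference passed for 38.7% of all tested genes. Clock fell by 0.19 on day 18 and rose by 0.31 on day 19 (difference 0.50, adjusted p = 0.000143). Rora rose on both days, by 0.39 and 0.93, and that difference did not pass (adjusted p = 0.0989).

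The difference between the days passed for 5584 of 14426 genes (38.7%), with the day 19 value higher for 2335 (16.2%) and lower for 3249 (22.5%). Higher values made up 41.8% of these calls, against 52.1% with quantile scaling. Hmox1 fell on day 18 and rose by 3.29 ± 0.16 on day 19, from a mean of 729 at CT32 to 7013 at CT44 (difference 4.05, adjusted p = 7.27e-12). Ankrd37 rose on day 18 and fell by 2.47 on day 19, from 1020 to 181 (difference -3.17, adjusted p = 1.48e-12). Angptl4, a fasting-induced regulator of lipoprotein lipase, was -0.01 on day 18 and 2.95 on day 19. Cytosolic ribosomal protein genes had 0 calls among 24 on day 18 (limma, 0 higher and 2 lower at an unadjusted p under 0.05), and all 24 fell on day 19. In the mitosis list 19 of 22 fell on day 19, where 1 had risen on day 18. Of all genes in the fit of the 8 libraries of CT32 and CT44, 24.5% fell.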

How the data were processed

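The deposited table holds whole-number values per gene for 51 libraries of fetal mouse kidney. The submitters' processing notes name the build mm10, the aligner STAR 2.5.2b, the counter featureCounts 1.5.0-p3, and bcl2fastq. The deposited values are a normalised score per gene that the authors rounded, since library totals were near equal, and no label names the scaling. Depth and counting error are therefore unknown, and no count model was used.

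Groups came from the time in the labels. Genes averaging 10 or more over the fitted libraries were tested on log2(value + 1) with limma 3.58.1 in R 4.3.3 (trend and robust moderation, 1 mean per time point), with Benjamini-Hochberg adjustment and a threshold of 0.05. The spread was taken from the 27 libraries of CT0 to CT24. Fold changes of low genes are understated on this scale. The procedure was tested on simulated data. Alternatives covered the libraries in the fit, pseudocount, filter, scaling, weights, replicate blocks and leaving out each library. Genes named were the 12 largest rises and 12 largest falls past the threshold whose groups did not overlap. The 8 largest departures and the 5 largest day differences each way past the threshold were added. All of these averaged 50 or more over the libraries compared. Predicted genes, pseudogenes, and sex-linked, mitochondrial and haemoglobin genes were left out of these ranks. All tested clock repressors, activators, ROR receptors and output factors were named, and up to 4 members of each other list. Other list members are given by value, and some genes are not reported here. The members and the 40 gene lists were chosen with earlier results of these data known, and 20 genes are in more than 1 list. Of the 14336 tested symbols 14237 were found in GENCODE M21, which gave coordinates. Promoter sequences are from RefSeq on GRCm38.p6.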

Additional observations from a re-analysis of the deposited data

Results flagged for a closer look

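Dixon's criterion, which chance meets in about 1 in 20 groups, was applied to the 4 CT8 libraries of 118 named genes. In 5 of the 118, a share no larger than chance gives, 1 library lay far from the other 3. These were Sdf2l1 in CT8 replicate 3 (601), Tnfrsf25 in replicate 2 (92), Acnat2 in replicate 3 (455), Cry2 in replicate 1 (869) and Gfra1 in replicate 4 (4213).

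Of the 118 named genes, 52 changed differently from CT32 to CT44 than from CT8 to CT20 by an interaction test in limma. Over all tested genes 38.7% passed. The 5 largest differences each way were named for passing this same test, so their place here was fixed in advance. Each value is the log2 change on day 19 minus that on day 18. The most positive differences were those of Hmox1 (4.05), Zbtb16 (3.18), Acnat2 (2.96), Angptl4 (2.96), Cyp4a14 (2.85), Ddx4 (2.24) and Cirbp (1.44). Differences of middle size were those of Per2 (1.27), Hmx2 (1.09), Hlf (0.94), Col4a3 (0.81), Cry1 (0.79), Arntl (0.73) and Col4a4 (0.59). Smaller positive differences were those of Sfpq (0.58), Cry2 (0.57), Acot1 (0.53), Clock (0.50), Tef (0.49), Per3 (0.48) and Serpina1a (0.43). The smallest were those of Nr1d1 (0.40), Gfra1 (0.31), Plvap (0.30), Igf2bp2 (0.28) and Aqp3 (0.23). Every clock gene among the 52 was on this side.

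Among the negative differences, the largest in size were those of Vip (-3.30), Ankrd37 (-3.17), Slc16a3 (-2.68), Isg15 (-2.55), Kcne3 (-2.53), Oasl1 (-1.33) and Actn3 (-1.05). Next in order were those of Atp6v1b1 (-1.04), Inhbb (-0.96), Sdf2l1 (-0.95), Chordc1 (-0.94), Egln3 (-0.93), Psmb8 (-0.91) and Akr1b7 (-0.90). Smaller ones were those of Tra2a (-0.89), Srsf7 (-0.79), Ddit4 (-0.65), Cyp2e1 (-0.56), Ccne2 (-0.54), Ccnb2 (-0.53) and Col6a3 (-0.52). The smallest were those of Srsf10 (-0.43), Kl (-0.41), Meis2 (-0.33), Fdft1 (-0.31) and Meis1 (-0.29). The wider spread of the second series and the position of CT32 in it move with these differences, and their part was not tested.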

How the results depend on the processing

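The number of genes called between CT20 and CT8 (1967) was 1082 when only the 7 libraries were fitted, 140 with all 51 libraries and 736 at an adjusted p of 0.01. It ranged from 692 (without CT20 replicate 2) to 1829 with 1 library of the 2 groups left out, and was 2221 without CT12 replicate 4, a setting added after the data were seen. For the departure from the age line, the count (1033) was 52 with all 51 libraries, and it ranged from 462 (without CT20 replicate 3) to 1293 (without CT8 replicate 4). The day difference (5584) ranged from 4903 to 5884 with 1 library left out, and was 4767 when only the contrasted groups were fitted. Deviations of same-numbered CT8 and CT20 libraries correlated at -0.146, -0.267 and -0.0219. So few libraries cannot settle whether replicate numbers pair them. Libraries that share the middle digit of the 3-digit library number in the column name correlated at -0.146, 0.162 and 0.167, so not every pair was positive there either. With the replicate number as a block, the calls were 2667, 1523, 5732 and 8778 for CT20 against CT8, the departure, the day difference and CT44 against CT32. With a block by that middle digit, they were 2673, 1569, 5596 and 8776. The fits by middle digit also left out CT12 replicate 4 and, where all 51 libraries were fitted, CT36 replicate 3. Without a block, leaving out CT12 replicate 4 gave 2221 calls for CT20 against CT8 and 1218 for the departure. Each count with a block was above that of the main fit.

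Signs turned for genes near 0. With 1 library left out, Per3 ranged from -0.01789 (without CT8 replicate 4) to 0.1049, and was -0.008949 without CT8 replicate 1 and -0.002371 without CT20 replicate 1. Nfil3 ranged from -0.01226 (without CT8 replicate 1) to 0.04161, and was -0.008378 without CT20 replicate 2. Tef ranged from -0.009314 (without CT8 replicate 1) to 0.05555, and Pparg from -0.1432 to 0.04285 (without CT8 replicate 1). With quantile scaling Per3 was -0.01269 and Nfil3 -0.01488, and with median-of-ratios scaling Nfil3 was -0.005366. The causes were not tested. The named genes of CT20 against CT8 kept direction and side of the threshold in 682 of 832 values with a library left out and in 1076 of 1244 under other settings. Depth is unknown, so no limit from counting could be set for low genes.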

Other observations

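Of 20 immediate early genes, 3 rose and 1 fell between CT8 and CT20, against 8.56% and 5.16% of all tested genes. Egr1, a growth-factor-induced transcription factor, measured 1358, 1215, 1519 and 1653 at CT8 and 1154, 1042 and 1086 at CT20, a log2 difference of -0.38 (limma adjusted p = 0.0297). Junb, a subunit of AP-1, measured 513, 485, 480 and 489 against 594, 647 and 555 (0.28, adjusted p = 0.0122). Neither had overlapping groups, and they moved in opposite directions. Ier3 and Btg2 rose by 0.38 and 0.15. Without CT20 replicate 2 none of the 4 passed, and Egr1 and Btg2 were each lost without 3 other libraries.

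In the cholesterol synthesis list 2 of 18 rose, against 8.56% of all tested genes, and 4 had a positive departure from the age line, against 4.72%. Insig1, which holds back sterol synthesis, measured 1786, 2121, 1963 and 1979 at CT8 and 2393, 2465 and 2153 at CT20 (0.25, adjusted p = 0.0364, lost without any 1 of 5 libraries), with a departure of 0.48 (adjusted p = 0.00157).

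Of 12 matrix collagen genes 5 rose and 0 fell, against 8.56% and 5.16% of all tested genes. All 12 were higher in value (median 0.16). Col6a3, a chain of beaded filaments, measured 5411, 5277, 5124 and 5848 at CT8 and 5636, 7386 and 6961 at CT20 (0.29, adjusted p = 0.00166). CT20 replicate 1 lay within the CT8 range. In the list extracellular matrix collagens, the count of rises was 12 without CT20 replicate 1, 1 without CT20 replicate 2 and 2 with quantile scaling. Plvap, a protein of fenestrated endothelium, measured 6601, 6849, 6681 and 6866 at CT8 and 7501, 8075 and 8139 at CT20 (0.23 ± 0.03, adjusted p = 8.87e-05), 1 of 3 of 16 endothelial genes that rose.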
